A study of Mus musculus with 11 samples.

Results

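A set of 10 genes of the ion channels and signalling enzymes that a sperm cell uses to become able to fertilise was followed in testis RNA: Catsper1, Catsper2, Catsper3, Catsper4, Catsperb, Kcnu1, Slc9a10, Adcy10, Prkaca and Atp1a4. These 10 genes were chosen by name for their known roles, by no rule on measured values, from the 24411 genes of the deposited count table, and each was found there. Slc9a10 is listed in the table under its current symbol Slc9c1, of which RefSeq gives Slc9a10 as a synonym. Whole testes freed of their capsule were taken from untreated mice aged 20 weeks, and polyadenylated RNA was sequenced. There were 4 wild-type samples (WT, C57Bl/6J). A further 4 samples came from a global knockout of Aco1, the gene of iron regulatory protein 1 (labelled Irp1_KO, here Irp1-/-). The other 3 samples came from a knockout of Ireb2, the gene of iron regulatory protein 2 (labelled Irp2_KO, here Irp2-/-). According to the methods, the Irp1-/- line carries the allele Aco1 tm1Roua on a C57Bl/6J background, and its WT controls were littermates from heterozygous parents. The origin of the Irp2-/- line is not given in the sources used here. The Aco1 deletion is global, and whether the Ireb2 deletion is global is not described in the paper. Effects arising in germ cells and in somatic cells cannot be told apart in either line. The labels number the samples but do not say that each is a separate animal, so the p-values measure the spread between these samples. The column label of Irp1-/- replicate 6 carries the letter R and those of all other samples the letter L. The meaning of these letters is not given, and they were not used.

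Sperm leave the testis unable to fertilise and acquire this ability, called capacitation, in the female tract. Bicarbonate and calcium then activate the soluble adenylyl cyclase ADCY10, cyclic AMP releases the catalytic subunit of protein kinase A, PRKACA, and the rising internal pH opens the calcium channel CatSper and the potassium channel KCNU1 (SLO3) in the flagellum. The sodium/proton exchanger SLC9C1 (sNHE) exports protons, and the sodium pump isoform ATP1A4, found in male germ cells, keeps the sodium gradient on which such exchange depends. The proteins act in the mature sperm, whereas their mRNAs are made in the testis, mainly in late spermatocytes and spermatids, and it is these mRNAs that were counted here.

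The pore of CatSper is built from the products of Catsper1, Catsper2, Catsper3 and Catsper4, which lie on chromosome 19 from 5335741 to 5344280, chromosome 2 from 121392631 to 121413792, chromosome 13 from 55784568 to 55808998 and chromosome 4 from 134211970 to 134227383 (GRCm38, the assembly also called mm10). Catsperb, whose product is an auxiliary subunit with a large outer domain, lies on chromosome 12 from 101404653 to 101626009. Kcnu1 and Prkaca lie on chromosome 8, from 25849623 to 25937939 and from 83972993 to 83996443. Slc9c1 lies on chromosome 16 from 45535309 to 45607001. Adcy10 and Atp1a4 lie on chromosome 1, from 165485183 to 165576774 and from 172223513 to 172258414. The channel is thus encoded at scattered loci, and of the 10 genes only Catsper4 shares a chromosome with a deleted gene, since Aco1 lies on chromosome 4 from 40143265 to 40199009, 94.0 Mb away.

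Promoter windows from 250 bases before to 50 bases after the first transcribed base were listed by RefSeq (GRCm38.p6) for 8 of the 10 genes, in 9 windows because Prkaca has a further start 3905 bases downstream of its first. Letter patterns of a few known elements were searched on both strands. TGACGTCA, the full cyclic AMP response element that the testicular activator CREM binds, was in 0 of the 9 windows and in 1.79% of all 32851 promoter windows of the same length. TGACG, the shorter form of the same element and contained in it, was in 2 of the 9 windows and in 20.8% of all windows. GTTGCCAT, the core of the X-box bound by RFX factors, was in 0 of the 9 windows and in 1.35% of all. The 130 bases upstream of the first base are shown for the 2 genes that hold the shorter element, for the further Prkaca start, which lacks it, and for Atp1a4, the most abundant of the 10 transcripts. Capitals mark TGACG, here always read from the opposite strand as CGTCA, and each run ends at the base before the start.
Catsper2 (chr2:121413793-121413922, minus strand): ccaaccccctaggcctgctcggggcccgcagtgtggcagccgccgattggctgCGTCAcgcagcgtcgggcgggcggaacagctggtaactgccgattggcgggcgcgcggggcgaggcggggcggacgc
Prkaca, first start (chr8:83972848-83972977, plus strand): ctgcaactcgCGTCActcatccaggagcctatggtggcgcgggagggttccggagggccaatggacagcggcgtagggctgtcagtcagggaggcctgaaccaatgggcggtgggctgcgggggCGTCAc
Prkaca, further start (chr8:83976753-83976882, plus strand): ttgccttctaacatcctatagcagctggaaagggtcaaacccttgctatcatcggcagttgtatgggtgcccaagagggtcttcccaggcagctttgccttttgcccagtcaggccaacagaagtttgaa
Atp1a4 (chr1:172258425-172258554, minus strand): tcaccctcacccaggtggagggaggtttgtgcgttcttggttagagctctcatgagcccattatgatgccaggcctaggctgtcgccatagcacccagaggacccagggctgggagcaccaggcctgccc
The element began 77 bases upstream of the start in Catsper2, and 120 and 6 bases upstream in Prkaca. These matches describe the letters in the windows, and binding was not measured. The counts were summed per gene, so transcripts from the different Prkaca starts, among them the form with the sperm-specific first exon, were not separated.

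The deleted genes were read first as a check of the labels. Levels are given as CPM, the count of a gene divided by the library's total count and scaled to 1000000 counts. Aco1 measured 9.59, 12.2, 12.1 and 12.9 CPM in the WT samples, numbered 1 to 4, against 9.19, 9.04, 7.98 and 8.17 CPM in Irp1-/- replicates 1, 2, 6 and 7. The groups did not overlap, the log2 fold change was -0.45 (standard error 0.098) and the adjusted p in edgeR's quasi-likelihood test was 0.0158. Of the fits that left out 1 sample, those without Irp1-/- replicate 6 or WT replicate 2, 3 or 4 lost this call in edgeR, with an adjusted p between 0.0520 and 0.0750. Ireb2 measured 62.3, 61.3 and 64.4 CPM in Irp2-/- against 132 to 142 CPM in WT, a log2 fold change of -1.16 (standard error 0.050; edgeR adjusted p = 2.84e-13). In both lines part of the transcript was thus still counted, and every sample lay on the side its label gives. For Aco1, WT replicate 1 (9.59 CPM) lay above Irp1-/- replicate 1 (9.19 CPM) by a margin within the counting error. The Aco1 level thus did not separate these samples beyond that error.

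The libraries held 15902473 to 22451417 counts, the smallest being Irp1-/- replicate 7. No library was a copy of another: within genotypes, the chi-square of each of the 15 pairs was 1.97 to 6.75 times its degrees of freedom. All 10 genes were well counted, with 1011 to 19830 counts in a library. The SD between replicates was 1.16% to 7.55% of the mean over the 30 combinations of gene and genotype (median 3.06%), and it exceeded the error of counting alone, 0.754% to 2.89%, in 27 of the 30. Irp1-/- replicate 7 stood apart from its group for Catsper1, and the calls of named genes that change when it is left out are given below. Each sample was left out in turn. Where a named gene was not called with all samples but was after an omission, the omitted sample lay nearest to the other group. Omitting that sample widened the difference, so such calls were partly set by which sample was left out.

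Per kilobase of exon, the sodium pump was by far the most abundant of the 10 transcripts and the CatSper auxiliary subunit the least. In WT testes Atp1a4 stood at 243 ± 5.04 CPM per kb (SD, n = 4), Catsper2 at 78.3 ± 2.26 and Catsper1 at 67.9 ± 4.23 CPM per kb. Catsper4, Prkaca and Catsper3 followed at 52.5 ± 1.89, 52.4 ± 1.63 and 50.3 ± 0.970 CPM per kb, and Catsper4 did not differ from Prkaca, nor Prkaca from Catsper3, beyond the spread of the samples. Adcy10 at 46.5 ± 1.40 and Slc9c1 at 44.6 ± 0.990 CPM per kb also overlapped each other. Kcnu1 at 27.8 ± 0.589 and Catsperb at 19.4 ± 0.895 CPM per kb closed the order without overlap. The mRNAs of the 4 pore subunits, of which the channel holds 1 each, were thus not all at equal levels. Catsper4 and Catsper3 overlapped at this length, with WT ranges of 50.1 to 54.7 and 49.6 to 51.7 CPM per kb. The lengths were those of all exons joined in GENCODE M21, not of the annotation used for counting. With the longest transcript as the length, 5 of the 10 ranks changed: Adcy10 moved to the third rank at 73.0 CPM per kb, in overlap with Catsper1, and Catsperb at 28.8 overlapped Kcnu1 at 29.4 CPM per kb. Atp1a4 and Catsper2 kept the top ranks at both lengths.

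**Figure D1:**
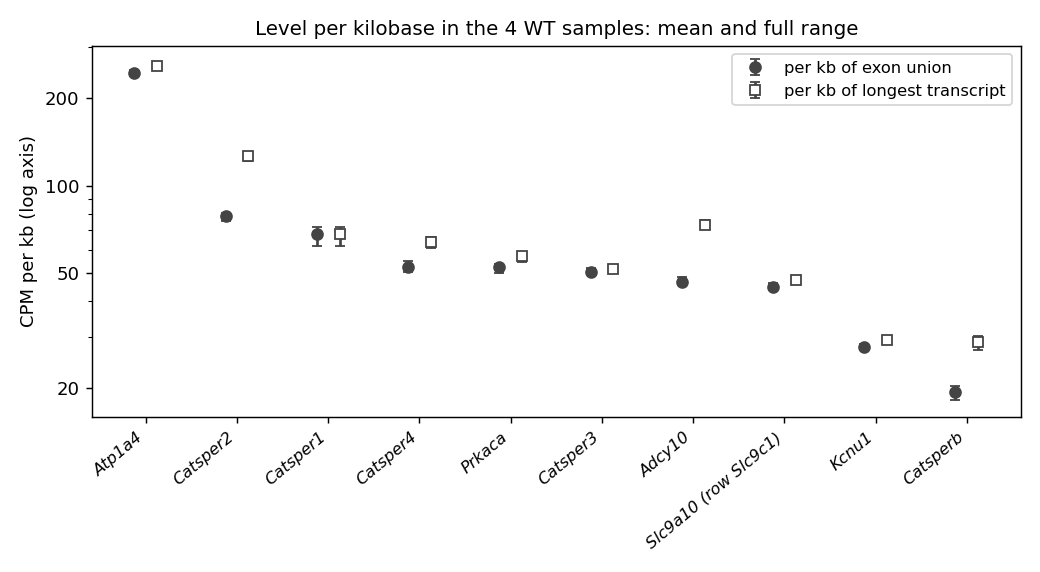
Mean level of each gene in the 4 WT samples in CPM per kilobase, on a log axis, with bars for the full range of the samples, for the joined exons (filled circles) and for the longest transcript (open squares). Atp1a4 stands at 243 CPM per kb of joined exons, above Catsper2 at 78.3, and Catsper2 and Adcy10 move most with the length used.

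Prkaca exceeded Prkacb, the other widely expressed catalytic subunit of protein kinase A, 37.2 ± 0.629 fold per kilobase in WT (SD, n = 4), 34.9 ± 1.70 fold in Irp1-/- (n = 4) and 32.2 ± 1.68 fold in Irp2-/- testes (n = 3). The Prkaca ratio ran from 36.4 to 38.0 in WT and from 30.3 to 33.6 in Irp2-/- without overlap. Neither gene of that ratio passed the test between these genotypes in edgeR (Prkaca adjusted p = 0.674, Prkacb adjusted p = 0.735). With the longest transcripts as lengths the WT ratio was 20.1.

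For the pore subunits of CatSper, none of the 4 genes passed the test in any comparison. In whole tissue RNA, fewer cells of a type and less RNA per cell cannot be told apart, and this holds for every level given. Catsper1 measured 151, 158, 149 and 136 CPM in WT, 166, 166, 164 and 143 CPM in Irp1-/- replicates 1, 2, 6 and 7, and 143, 142 and 148 CPM in Irp2-/-. Its first 3 Irp1-/- samples lay above all WT and Irp2-/- samples, while replicate 7 lay among them. The log2 fold change was 0.09 (95% interval -0.02 to 0.20; edgeR adjusted p = 0.513) between Irp1-/- and WT, and -0.06 (-0.17 to 0.05; edgeR adjusted p = 0.815) between Irp2-/- and WT.

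The largest difference of any of the 10 genes in any comparison was that of Catsper1 between the knockouts. Its log2 fold change in Irp1-/- against Irp2-/- was 0.16 (standard error 0.054; interval 0.05 to 0.27; unadjusted p = 0.00784 and adjusted p = 0.107, edgeR). Without Irp1-/- replicate 7 it was 0.21 with an adjusted p of 0.0118 in edgeR, past the threshold. Over all alternatives tried the adjusted p of this difference ran from 0.0118 to 0.294 in edgeR and DESeq2.

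Catsper2 had the smallest SD relative to its mean among the pore subunits in both knockouts, 2.05% in Irp1-/- and 1.90% in Irp2-/-. It measured 296, 296, 286 and 279 CPM in WT, 294, 284, 297 and 296 CPM in Irp1-/-, and 280, 289 and 280 CPM in Irp2-/-. The genotypes overlapped throughout, with log2 fold changes of 0.0032 (interval -0.08 to 0.08) in Irp1-/- and -0.05 (-0.15 to 0.04) in Irp2-/- against WT.

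Catsper3 was the member with the widest spread relative to its mean, 7.55% in Irp1-/- testes. It measured 67.9, 70.4, 67.5 and 68.0 CPM in WT, 72.3, 75.9, 68.5 and 63.6 CPM in Irp1-/-, and 69.0, 63.5 and 65.6 CPM in Irp2-/-. The Irp1-/- samples lay on both sides of WT, and the log2 fold change was 0.02 (interval -0.08 to 0.13) in Irp1-/- and -0.07 (-0.18 to 0.04) in Irp2-/-.

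Catsper4 measured 115, 105, 111 and 110 CPM in WT, 123, 125, 112 and 119 CPM in Irp1-/-, and 120, 108 and 114 CPM in Irp2-/-. Irp1-/- replicates 1, 2 and 7 lay above every WT sample, and replicate 6 lay within the WT range. The log2 fold change against WT was 0.10 in Irp1-/- (interval 0.01 to 0.19; unadjusted p = 0.0277 and adjusted p = 0.330, edgeR) and 0.03 in Irp2-/- (interval -0.08 to 0.13).

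Catsperb, which encodes the auxiliary subunit CATSPER beta, measured 101, 106, 109 and 112 CPM in WT, 101, 105, 110 and 109 CPM in Irp1-/-, and 104, 105 and 101 CPM in Irp2-/-. All 3 genotypes overlapped. Its log2 fold change was -0.03 (interval -0.11 to 0.06) in Irp1-/- and -0.07 (-0.17 to 0.03) in Irp2-/- against WT.

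**Figure D2:**
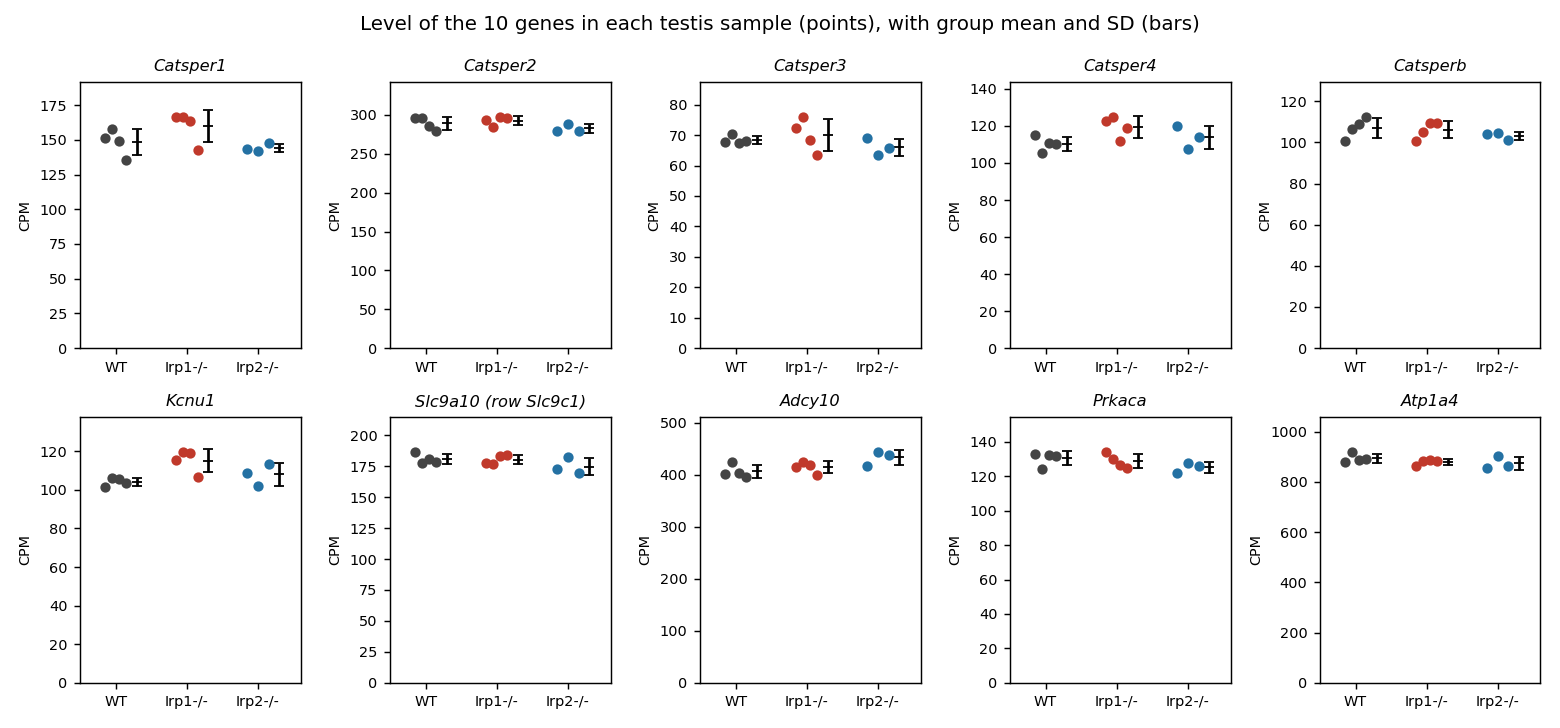
Level of each of the 10 genes in every sample in CPM (points, each axis from 0), with the group mean and SD as bars, for 4 WT, 4 Irp1-/- and 3 Irp2-/- samples. The groups overlap for all genes except Kcnu1, where the lowest Irp1-/- sample lies at 106.4 CPM and the highest WT sample at 106.2 CPM.

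Kcnu1, the pore of the sperm potassium channel that hyperpolarises the membrane in capacitation, was the gene nearest to a call against WT. It measured 101.3, 106.2, 105.4 and 103.4 CPM in WT, 115.5, 119.7, 118.9 and 106.4 CPM in Irp1-/- replicates 1, 2, 6 and 7, and 108.7, 101.9 and 113.4 CPM in Irp2-/-. Every Irp1-/- sample lay above every WT sample, though replicate 7 by a margin far within the counting error. The log2 fold change in Irp1-/- was 0.13 (standard error 0.043; interval 0.05 to 0.22; unadjusted p = 0.00414 and adjusted p = 0.149, edgeR). Without Irp1-/- replicate 7 it was 0.17, and it passed the threshold with an adjusted p of 0.0249 in edgeR. Over all alternatives the adjusted p ran from 0.0249 to 0.332. In Irp2-/- testes the log2 fold change was 0.03 (interval -0.07 to 0.13), and Irp1-/- differed from Irp2-/- by 0.10 (interval -0.01 to 0.21; edgeR adjusted p = 0.340).

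Slc9c1, the proton exchanger coupled to the soluble cyclase, measured 187, 178, 181 and 179 CPM in WT, 178, 177, 183 and 184 CPM in Irp1-/-, and 172, 182 and 169 CPM in Irp2-/-. The genotypes overlapped, and the log2 fold changes were -0.02 (interval -0.10 to 0.06) and -0.07 (-0.17 to 0.03) against WT.

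Adcy10, the bicarbonate sensor that makes the cyclic AMP, measured 401, 424, 404 and 396 CPM in WT, 415, 425, 418 and 399 CPM in Irp1-/-, and 417, 444 and 438 CPM in Irp2-/-. Of the Irp2-/- samples, 2 lay above all WT samples and 1 among them. The log2 fold change was 0.01 (interval -0.06 to 0.09) in Irp1-/- and 0.07 (-0.02 to 0.17; edgeR adjusted p = 0.714) in Irp2-/-.

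Prkaca, the kinase subunit that cyclic AMP sets free, measured 133, 124, 133 and 132 CPM in WT, 134, 130, 127 and 125 CPM in Irp1-/-, and 122, 128 and 126 CPM in Irp2-/-. WT replicate 2 lay below the other WT samples and among the knockouts. The log2 fold change was -0.03 (interval -0.11 to 0.05) in Irp1-/- and -0.08 (-0.18 to 0.02; edgeR adjusted p = 0.674) in Irp2-/-.

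Atp1a4 measured 877, 919, 886 and 889 CPM in WT, 863, 883, 886 and 882 CPM in Irp1-/-, and 854, 901 and 863 CPM in Irp2-/-. The values overlapped, and with this depth the intervals were the narrowest of the 10 genes in Irp1-/- against WT: the log2 fold change was -0.04 (-0.11 to 0.04), and it was -0.05 (-0.14 to 0.04) in Irp2-/-.

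Read as a group, 0 of the 10 genes passed an adjusted p under 0.05 in any of the 3 comparisons in edgeR, and all 10 passed its filter on low counts. For Irp1-/- against WT this stands beside 1.02% of the 16002 genes tested, 0.581% higher and 0.444% lower. At an unadjusted p under 0.05 there were 2 of the 10, Kcnu1 and Catsper4, beside 12.1% of all genes, and 1 of the 10 had groups that did not overlap, beside 6.18%. The median log2 fold change of the 10 was 0.01, with 6 above 0, and that of all genes was -0.0008, with 49.7% above 0. The outermost bounds of the 95% intervals were -7.52% and 16.6%, so a change larger than that in either direction lay outside the interval of each gene.

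For Irp2-/- against WT the 0 of 10 stands beside 1.21% of 16154 genes, 0.371% higher and 0.842% lower. At an unadjusted p under 0.05 there were also 0 of the 10, beside 9.42% of all genes, and no gene had groups that did not overlap, beside 9.76%. The median log2 fold change was -0.06, with 3 of the 10 above 0 beside 51.3% of all genes, and the intervals reached from -11.5% to 12.2%. Every interval of this comparison included 0.

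For Irp1-/- against Irp2-/- the 0 of 10 stands beside 4.69% of 16281 genes, 2.92% higher and 1.76% lower in Irp1-/-. These were 763 genes, against 164 and 196 called in the comparisons with WT. Catsper1 alone had an unadjusted p under 0.05, beside 16.3% of all genes, and the groups of all 10 genes overlapped, beside 15.1% of all genes without overlap. Of the 10, 9 were above 0 beside 49.4% of all genes, with a median log2 fold change of 0.06 against -0.0019, and the exception was Adcy10. The comparisons share samples, and the 10 genes share each library, so these directions are not independent of each other. DESeq2 called 0 of the 10 in each comparison as well.

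**Figure D3:**
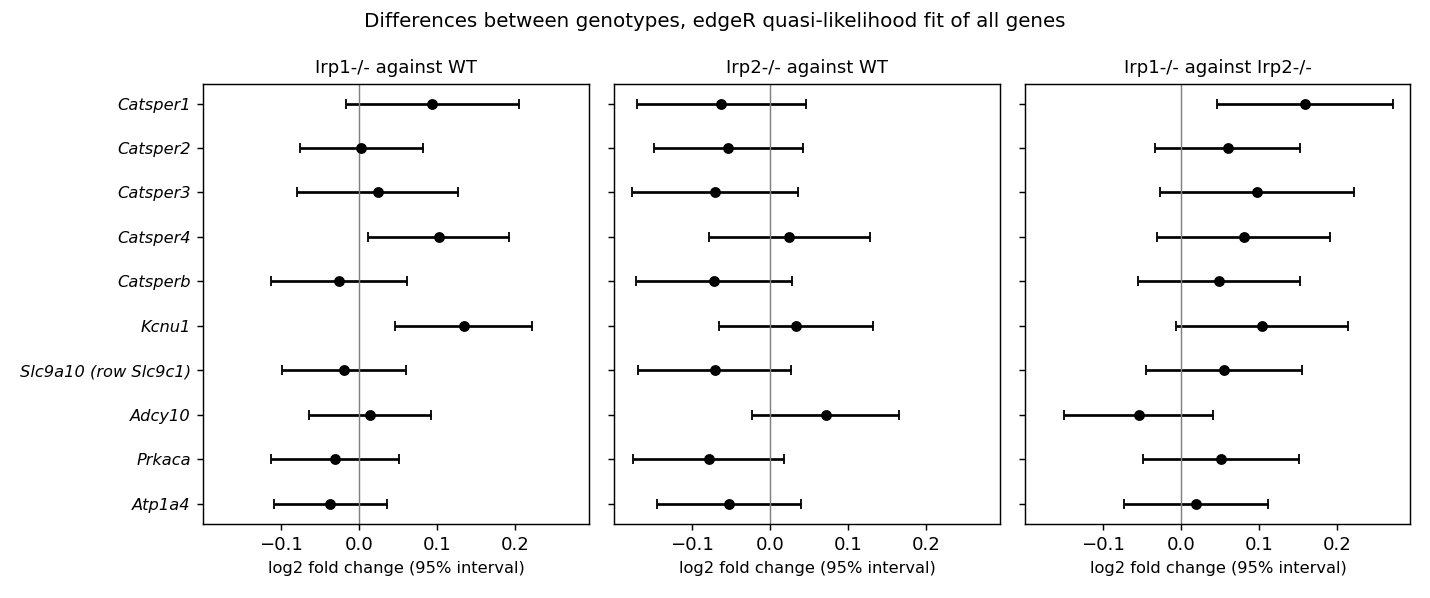
Log2 fold change of each of the 10 genes with its 95% interval from edgeR's quasi-likelihood fit of all genes, for Irp1-/- against WT, Irp2-/- against WT and Irp1-/- against Irp2-/-. Intervals leave out 0 for Catsper4 and Kcnu1 in the first panel and for Catsper1 in the last, and none of these passes the adjusted threshold.

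The makeup of the tissue was read from marker genes beside these values. Summed spermatocyte markers (9 genes) lay at 1475 to 1501 CPM in Irp1-/- and 1507 to 1606 CPM in WT without overlap, and at 1547 to 1566 CPM in Irp2-/-. The nearest samples, Irp1-/- replicate 7 at 1501 CPM and WT replicate 1 at 1507 CPM, were apart by a margin within the counting error. In edgeR, 0 of these 9 genes were called between Irp1-/- and WT. Round spermatid markers (8 genes) reached 2818 CPM in Irp1-/- replicate 7, against 2659 to 2685 CPM in the other Irp1-/- samples and 2645 to 2720 CPM in WT. Elongating spermatid markers (10 genes), led by the protamines, spread from 21947 to 25056 CPM in Irp1-/-, again highest in replicate 7, from 23110 to 23977 CPM in WT and from 20356 to 24099 CPM in Irp2-/-. Irp1-/- replicate 7 was thus the Irp1-/- sample with the highest spermatid markers and the lowest Catsper1, Catsper3, Kcnu1, Adcy10 and Prkaca. It was the highest for Slc9c1, and lay between the other Irp1-/- samples for Catsper2, Catsper4, Catsperb and Atp1a4. The part of the markers in these values was not tested.

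Of the somatic cells, Sertoli markers (9 genes) lay at 429 to 480 CPM in Irp1-/-, 401 to 429 CPM in WT and 387 to 450 CPM in Irp2-/-, and Leydig markers (7 genes) at 972 to 1150, 703 to 1051 and 745 to 1017 CPM. Markers of spermatogonia (9 genes), peritubular myoid cells (5 genes) and macrophages (7 genes) overlapped between all genotypes. Blood markers lay at 37.4 to 56.7 CPM in Irp1-/- and 30.2 to 36.3 CPM in WT, with Hbb-bs at 0. Markers of the epididymal epithelium (6 genes) summed to at most 0.377 CPM in any sample, and 5 of the 6 were at 0 in WT, Lcn5 in every sample. Of all markers, Hsd17b3 of Leydig cells rose in Irp1-/- against WT with a log2 fold change of 0.37 (edgeR adjusted p = 0.0232), none changed in Irp2-/-, and Rhox5, Fshr and Insl3 were higher in Irp1-/- than in Irp2-/- testes.

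Across the 11 samples the 10 genes did not move as a block. Of the 45 pairs of genes, 5 had a Pearson correlation of log2 CPM above 0.5 and 1 lay below -0.5, with a median of -0.01. Catsper1 followed Kcnu1 (r = 0.74 over 11 samples, 0.68 after removal of the genotype means) and Catsper3 (0.72 and 0.67), and Catsper3 followed Kcnu1 (0.59 and 0.70). Catsper2 followed Slc9c1 (0.72 and 0.64). Catsper4 followed Kcnu1 at 0.55, which fell to 0.11 within genotypes, and ran opposite to Atp1a4 (-0.72 and -0.78). The pairs above were picked by their r over the 11 samples. Other pairs were as close within genotypes: Kcnu1 ran opposite to Slc9c1 (-0.40 and -0.76), and Catsper1 followed Adcy10 (0.21 and 0.72). Irp1-/- replicate 7 was the lowest Irp1-/- sample for Catsper1, Catsper3 and Kcnu1, and its part in their correlations was not tested. The points of each pair come from the same libraries and thus share depth and tissue makeup, and no test is given.

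**Figure D4:**
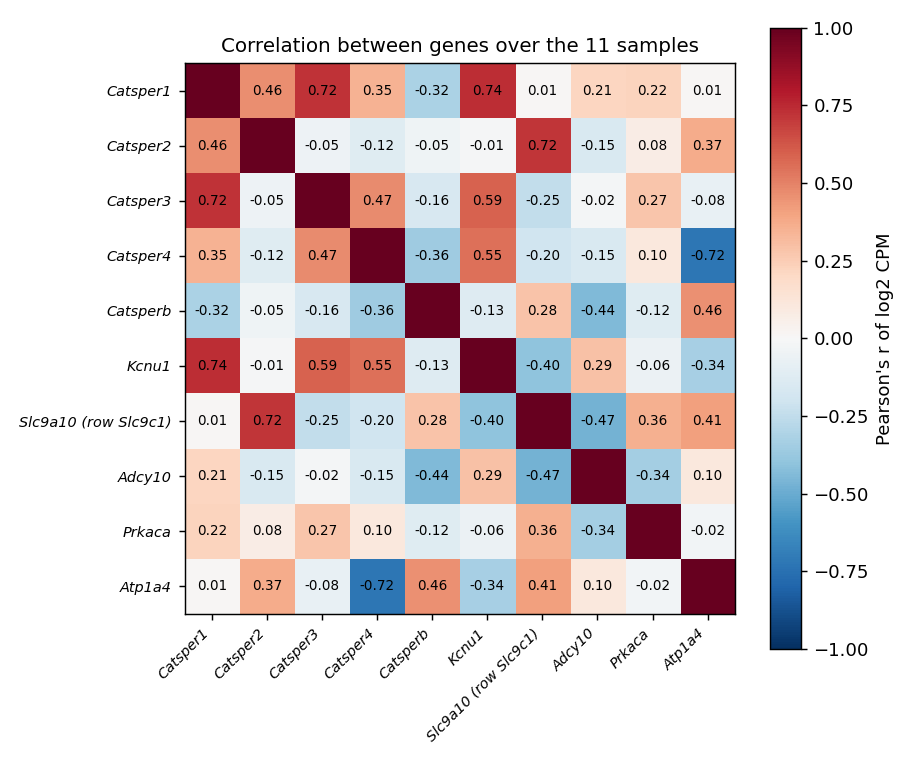
Pearson correlation of log2 CPM between each pair of the 10 genes over the 11 samples, from -1 (blue) to 1 (red). Catsper1, Catsper3 and Kcnu1 form a set of positive values between 0.59 and 0.74, Catsper2 pairs with Slc9c1 at 0.72, and Catsper4 and Atp1a4 stand at -0.72.

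The mean standardised level of the 10 genes was highest in Irp1-/- replicates 1, 2 and 6, at 0.41, 0.63 and 0.50 SD units, and lowest in Irp2-/- replicate 1, at -0.58. The genes outside the lists whose pattern over the 11 samples was most like that mean were Fbxw5 (r = 0.95), Actl11 (0.93), Kpna6 (0.92), Gm21276 (0.91) and Cmklr1 (0.91). They are the highest values picked from all tested genes outside the lists, over only 11 samples. Such a search yields high values by selection, and a link to the 10 genes was not tested. Among the 10 genes themselves the likeness ran from 0.86 for Catsper1 to 0.01 for Adcy10, with Catsper3 at 0.63, each gene being itself a part of that mean.

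The rest of the pathway was read from 4 lists with 74 genes, of which 71 were matched and 67 passed the count filter. Against WT, in edgeR, 0 of the 67 rose and 1 fell in Irp1-/- testes, and 0 rose and 0 fell in Irp2-/- testes, beside 1.02% and 1.21% of all genes called in these comparisons. At an unadjusted p under 0.05 there were 10 (14.9%) and 5 (7.46%) of the 67, beside 12.1% and 9.42% of all genes. The median log2 fold changes were 0.01 and -0.01. Without Irp1-/- replicate 7, 3 of the pathway genes were called in Irp1-/- against WT in edgeR, among them Prkar2a and Akap14. Between the knockouts, 2 of the 67 were higher in Irp1-/- and 0 lower, beside 4.69% called among all genes. DESeq2 called 1, 0 and 2 of these genes in the same order of comparisons.

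Of the auxiliary subunits of CatSper, 0 of the 9 tested passed edgeR's test in either knockout. An unadjusted p under 0.05 was reached by 0 in Irp1-/- and 1 (11.1%) in Irp2-/-, beside 12.1% and 9.42% of all genes. Median log2 fold changes were 0.0025 in Irp1-/- and -0.01 in Irp2-/-. Als2cr11 (now C2cd6), needed to place the channel in the flagellum, stood at 315 ± 15.1 CPM in WT (SD, n = 4), 324 ± 8.85 in Irp1-/- (n = 4) and 317 ± 10.8 in Irp2-/- (n = 3). Tex40 (now Catsperz), which keeps the channel in continuous rows, stood at 285 ± 5.69, 282 ± 18.2 and 285 ± 24.3 CPM. Gm16432 (Catspere2 in RefSeq) differed most in Irp1-/- by a log2 fold change of 0.12 (edgeR adjusted p = 0.667) at only 8.56 CPM in WT, and Slco6c1, a transporter of the channel complex, in Irp2-/- by -0.11 (edgeR adjusted p = 0.426). Catsperg1 and Catsperg2 are near-identical copies between which reads can be split, so their single values are uncertain and neither passed the test.

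Of the 18 other ion transport genes tested, 0 passed edgeR's test against WT. An unadjusted p under 0.05 was reached by 4 (22.2%) in Irp1-/- and 2 (11.1%) in Irp2-/-, beside 12.1% and 9.42% of all genes. Median log2 fold changes were 0.07 in Irp1-/- and 0.01 in Irp2-/-. Car2, a carbonic anhydrase that makes bicarbonate, measured 190, 181, 186 and 203 CPM in WT, 208, 193, 217 and 241 CPM in Irp1-/-, and 195, 169 and 165 CPM in Irp2-/-. The difference between Irp1-/- and Irp2-/- testes was a log2 fold change of 0.29 (standard error 0.071; edgeR adjusted p = 0.0254), although Irp2-/- replicate 1 lay above Irp1-/- replicate 2. Of the fits that left out 1 sample, the call was lost in edgeR without Irp1-/- replicate 6 (adjusted p = 0.0560), Irp2-/- replicate 2 (0.136) or Irp2-/- replicate 3 (0.0694). Against WT its log2 fold change was 0.16 in Irp1-/- (edgeR adjusted p = 0.179) and -0.13 in Irp2-/- (edgeR adjusted p = 0.437). These were called in edgeR without Irp1-/- replicate 2 (adjusted p = 0.0373) and without Irp2-/- replicate 1 (0.0261), respectively.

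Atp1b3, the beta subunit that pairs with sodium pump alpha subunits, stood at 442 ± 6.90 CPM in WT, 405 ± 29.3 in Irp1-/- and 445 ± 8.63 in Irp2-/-. Its log2 fold change in Irp1-/- was -0.14 (edgeR adjusted p = 0.152), with Irp1-/- replicate 2 at 447 CPM above the others at 382 to 402 CPM. Without that replicate it was -0.20 and past the threshold in edgeR (adjusted p = 0.00855), and the difference from Irp2-/- was then called as well (-0.18, edgeR adjusted p = 0.0491). Hvcn1, a voltage-gated proton channel of low level here, measured 2.14, 2.08, 3.69 and 2.50 CPM in WT and 4.65, 3.36 and 4.86 CPM in Irp2-/-. Its log2 fold change in Irp2-/- of 0.70 (standard error 0.19) missed the threshold at an adjusted p of 0.0764 in edgeR, and passed it without WT replicate 3 (0.91, edgeR adjusted p = 0.0127).

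Among the 21 genes of cyclic AMP and protein kinase A, 1 passed edgeR's test in Irp1-/- and 0 in Irp2-/- against WT. An unadjusted p under 0.05 was reached by 4 (19.0%) in Irp1-/- and 1 (4.76%) in Irp2-/-, beside 12.1% and 9.42% of all genes. Median log2 fold changes were 0.01 in Irp1-/- and -0.01 in Irp2-/-. Prkar2a, the regulatory subunit RII alpha that holds the kinase on anchoring proteins of the flagellum, measured 350, 358, 358 and 365 CPM in WT, 298, 330, 305 and 330 CPM in Irp1-/-, and 334, 341 and 311 CPM in Irp2-/-. All samples of both knockouts lay below all WT samples. Prkar2a fell in Irp1-/-, with a log2 fold change of -0.19 (standard error 0.041; edgeR adjusted p = 0.0143). The call was lost in edgeR without Irp1-/- replicate 1 (adjusted p = 0.124), Irp1-/- replicate 6 (0.0559) or WT replicate 2 (0.0609). In Irp2-/- the log2 fold change was -0.14 (standard error 0.047; edgeR adjusted p = 0.204), and the knockouts differed by -0.05 (edgeR adjusted p = 0.735). Its catalytic partner Prkaca did not pass the test in these samples, as given above.

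Akap14, which encodes a kinase anchoring protein of cilia and flagella, measured 18.7, 19.6, 19.9 and 17.9 CPM in WT, 23.8, 24.0, 22.5 and 18.9 CPM in Irp1-/-, and 18.4, 16.3 and 17.9 CPM in Irp2-/-. It was higher in Irp1-/- than in Irp2-/- testes without overlap, the log2 fold change being 0.36 (standard error 0.084; edgeR adjusted p = 0.0126). The call was lost in edgeR without Irp1-/- replicate 1 (adjusted p = 0.0603), Irp1-/- replicate 2 (0.0544) or Irp2-/- replicate 2 (0.0973). Against WT its log2 fold change was 0.22 in Irp1-/- (edgeR adjusted p = 0.171, and 0.0311 without Irp1-/- replicate 7) and -0.14 in Irp2-/- (edgeR adjusted p = 0.654).

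Akap4 and Akap3 encode the major anchoring proteins of the fibrous sheath, and neither passed the test in any comparison. Akap4 stood at 2374 ± 64.0 CPM in WT, 2414 ± 113 in Irp1-/- and 2295 ± 114 in Irp2-/-, and Akap3 at 1367 ± 45.5, 1361 ± 37.1 and 1385 ± 28 CPM. Per kilobase of exon in WT, Akap4 stood at 784 and Akap14 at 10.6 CPM per kb. Pde8b, a cyclic AMP phosphodiesterase, differed most in Irp1-/- by a log2 fold change of 0.35 (edgeR adjusted p = 0.233) at 4.38 CPM in WT, and Prkar2b, the regulatory subunit RII beta, in Irp2-/- by 0.21 (edgeR adjusted p = 0.673).

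Of the 19 downstream kinases, phosphatases and partners tested, 0 passed edgeR's test against WT. An unadjusted p under 0.05 was reached by 2 (10.5%) in Irp1-/- and 1 (5.26%) in Irp2-/-, beside 12.1% and 9.42% of all genes. Median log2 fold changes were -0.0014 in Irp1-/- and -0.03 in Irp2-/-. The chaperone gene Hsp90aa1 stood at 2303 ± 26.2 CPM in WT, 2234 ± 47.5 in Irp1-/- and 2263 ± 49.8 in Irp2-/-, and Pebp1, whose product is a kinase inhibitor found on sperm, at 1591 ± 31.4, 1585 ± 58.6 and 1582 ± 98.4 CPM. The tyrosine kinase Ptk2b differed most in Irp1-/- by a log2 fold change of 0.20 (edgeR adjusted p = 0.254), and Csk, a negative regulator of SRC family kinases, in Irp2-/- by 0.23 (edgeR adjusted p = 0.204). Both had groups that did not overlap in those comparisons, beside 6.18% of all genes in Irp1-/- and 9.76% in Irp2-/- against WT. Hsp90aa1 also had groups without overlap in Irp1-/- against WT (edgeR adjusted p = 0.520). Csk lies on chromosome 9 from 57626646 to 57653631, as does the deleted Ireb2, from 54862658 to 54912534. Atp1b3, from 96332655 to 96364442, and Prkar2a, from 108689314 to 108750436, lie on chromosome 9 as well. The part of this shared location in the Irp2-/- values of these genes was not tested.

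**Figure D5:**
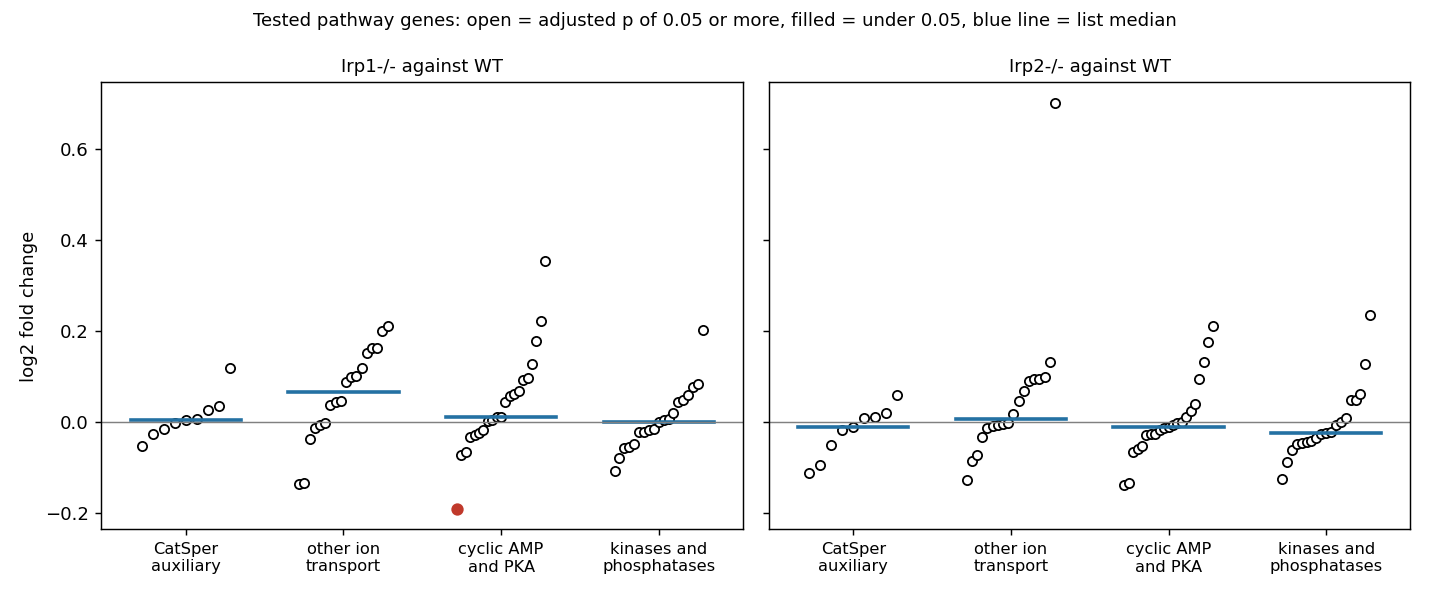
Log2 fold change against WT of the 67 tested pathway genes in 4 lists, sorted within each list, for Irp1-/- (left) and Irp2-/- (right); filled points have an edgeR adjusted p under 0.05 and the blue line is the list's median. The filled point is Prkar2a at -0.19, and the high open point on the right is Hvcn1 at 0.70.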

How the data were processed

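Testis RNA-seq of 4 WT, 4 Irp1-/- and 3 Irp2-/- samples was analysed, grouped by their labels. The authors deposited unnormalized read counts of each gene. Illumina stranded mRNA libraries were processed by them in the nf-core RNA-seq workflow, with the mm10 genome and annotation of iGenomes. The counting tool is not given in the sources used here, so whole numbers could be rounded estimates, and trimming, alignment and counting could not be varied. The submitters' processing notes also name bcl2fastq and DESeq2.

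Levels are CPM, counts scaled to a library total of 1000000. Lengths were taken from GENCODE M21 and promoters from RefSeq. Each pair of genotypes was fitted on its own samples by edgeR 4.0.16 under R 4.3.3, with the default filter on low counts, TMM factors and the robust quasi-likelihood test. P-values were adjusted by Benjamini-Hochberg over all genes, with a threshold of 0.05. DESeq2 1.42.0 was an alternative, beside RLE normalization, other count filters, a fit of all 11 samples, a block for the replicate number, leaving out each replicate in turn, and another transcript length. The code was checked on simulated counts. Library totals of 15902473 to 22451417 counts set the precision, and counting errors cover counting only.

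The 10 genes and all gene and marker lists were chosen with earlier results of these data known. Named were the 10 genes, the deleted genes, and of each pathway list any gene past the threshold in a comparison, the 2 with the highest mean level and the most changed against WT in each knockout, plus the 5 genes most alike in pattern. Catspere1, Tmem249 and Tmem262 were not matched, and Slc9b2, Slc26a3, Scnn1a and Pde11a did not pass the count filter. Some items are not reported here.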

Additional observations from a re-analysis of the deposited data

Results flagged for a closer look

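In all, 7 values stood apart from the other samples of their group by Dixon's criterion, of 74 groups of 4 samples examined, where chance alone gives about 1 in 20, or 3.7. Catsper1 measured 142.7 CPM in Irp1-/- replicate 7, against 163.9 to 166.4 CPM in the other Irp1-/- samples. In the same sample the summed round spermatid markers reached 2818 CPM, against 2659 to 2685 CPM in the others. Prkaca measured 124.4 CPM in WT replicate 2, against 131.9 to 132.9 CPM in the other WT samples. Als2cr11 measured 337.6 CPM in Irp1-/- replicate 6, against 319.2 to 321.1 CPM. Gm16432 measured 9.58 CPM in WT replicate 3, against 8.13 to 8.27 CPM. Atp1b3 measured 431.7 CPM in WT replicate 1, against 444.3 to 446.1 CPM. Hsp90aa1 measured 2163 CPM in Irp1-/- replicate 2, against 2255 to 2262 CPM.

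For 2 pathway genes the effects of the knockouts against the shared WT samples differed from each other by the direct test between the knockouts. The difference in log2 fold change, Irp1-/- minus Irp2-/-, was 0.29 for Car2 (edgeR adjusted p = 0.0254) and 0.36 for Akap14 (edgeR adjusted p = 0.0126), and neither gene passed the test against WT in either knockout. Neither call held in every fit that left out 1 sample. Car2 was not called without Irp1-/- replicate 6, Irp2-/- replicate 2 or Irp2-/- replicate 3 (edgeR adjusted p up to 0.136). Akap14 was not called without Irp1-/- replicate 1, Irp1-/- replicate 2 or Irp2-/- replicate 2 (edgeR adjusted p up to 0.0973). Over all fits that left out 1 sample, the log2 fold change ran from 0.23 to 0.37 for Car2 and from 0.32 to 0.43 for Akap14. A block for the replicate number also ended the Car2 call.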

How the results depend on the processing

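Of 400 fold changes of the 10 genes recomputed under the alternatives, 383 had the same sign and call as reported, 14 changed sign and 3 passed the threshold. With RLE normalization, other count filters, DESeq2 or a fit of all 11 samples, 0 of the 10 genes were called in any comparison. Without a count filter 1 pathway gene, Hvcn1, was called in Irp2-/- against WT. With the longest transcript as length, 5 ranks in the order of levels changed.

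Irp1-/- shares only the numbers 1 and 2 with the other groups, and its replicates 6 and 7 then stand alone in a replicate block. The block called 439 genes in Irp1-/- against WT in place of 164, and 4 pathway genes in place of 1. Signs turned for Catsper2 (-0.0645), Adcy10 (-0.0043) and Prkaca (0.0093) in Irp1-/- against WT, and for Catsperb (-0.0184) and Atp1a4 (-0.0040) in Irp1-/- against Irp2-/-. Between the knockouts 1 of the 10 genes, Catsper1, was called with the block (0.23, edgeR adjusted p = 0.0221), and Car2 was not (0.15, edgeR adjusted p = 0.241). The call of Aco1 was lost (-0.28, edgeR adjusted p = 0.314). The labels do not say that the numbers pair samples, and the reported fits did not pair them. Deviations of same-numbered samples from their group means correlated at 0.0547 to 0.130 over genes between Irp2-/- and WT. The range was 0.0446 to 0.0847 between Irp1-/- and WT, and -0.0035 to 0.0905 between the knockouts. For samples with different numbers it was -0.0872 to 0.0351, -0.0977 to 0.0638 and -0.109 to 0.0963, in the same order. As a hint from the data, 6 of 6 samples of Irp2-/- and WT with shared numbers correlated best with their own number. The same held for 3 of 4 samples of Irp1-/- and WT, and for 2 of 4 of the knockouts. Whether the samples are paired was not tested.

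With each replicate left out in turn, 0 to 1 of the 10 genes were called in Irp1-/- against WT, 0 to 0 in Irp2-/- against WT and 0 to 1 between the knockouts. The number of all genes called ran from 55 to 216 in Irp1-/- against WT, from 118 to 223 in Irp2-/- against WT and from 414 to 763 between the knockouts, lowest without Irp1-/- replicate 1, Irp2-/- replicate 2 and Irp2-/- replicate 2. It was 102, 84 and 106 in Irp1-/- against WT without Irp1-/- replicate 6, WT replicate 2 and WT replicate 4, and 471 between the knockouts without Irp1-/- replicate 1. Pathway genes called ran from 0 to 3, 0 to 1 and 0 to 3. Fold changes that changed sign lay near 0: in Irp1-/- against WT they ran from -0.0189 to 0.0249 for Catsper2, -0.0239 to 0.069 for Catsper3, -0.0452 to 0.0024 for Catsperb, -0.0302 to 0.0061 for Slc9c1 and -0.0039 to 0.0428 for Adcy10, and in Irp2-/- against WT from -0.0155 to 0.0557 for Catsper4. The cause of these shifts was not tested.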
